A study of Mus musculus with 82 samples.

Results

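The 9 loci described here are the mouse genes that write, copy and remove DNA methylation: Dnmt1, Uhrf1, Dnmt3a, Dnmt3b, Dnmt3l, Tet1, Tet2, Tet3 and Tdg, 9 of 21887 protein-coding genes in RefSeq. At each of them the ATAC-seq peaks were taken that overlapped the gene, or whose centre lay within 100 kb of a gene end with no other protein-coding gene end nearer. ATAC-seq finds accessible chromatin, the stretches of DNA that a transposase can reach and cut. Peaks of the 4 lists that shared at least 1 bp were merged, which gave 42 regions at the 9 loci out of 55274 in the genome. The choice of peaks used position alone, so it fixed neither in which list a region appeared nor how wide it was. The genes themselves were chosen with earlier results of these data known.

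The cells were mouse embryonic fibroblasts of the line labelled OG2-MEFs, turned toward pluripotency with retroviruses for OSKM (Oct4, Sox2, Klf4 and c-Myc). The D209N cells also received RNase H1(D209N), a form of the enzyme that removes RNA from RNA:DNA hybrids, with a substitution in its catalytic site. The Flag cells received Flag and are read as the control, and all cells of both arms carried OSKM. The groups are D209N at day 7, Flag at day 7, D209N at day 3 and Flag at day 3 of reprogramming, with 2 libraries labelled in each, 8 of the 82 samples of the series. The labels put the cells after infection in iCD1 medium or in a stem cell medium with vitamin C, without saying which was used for which library. The labels call the material reprogramming cells, and they describe no sorting step. The value of each group is 1 deposited peak list that carries positions only, so nothing below has a replicate error, no test was made, and read depth is unknown. These are bulk preparations, in which a site open in fewer cells and a site less open in each cell cannot be told apart. Where no peak is listed at a gene, its chromatin may still be open to a degree that the authors' threshold left out.

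In mammals DNA methylation sits mostly on the cytosine of CG dinucleotides. Dnmt3a and Dnmt3b place new marks, Dnmt3l is a catalytically inactive partner that stimulates them, and Dnmt1 copies the marks to the new strand after replication, guided by Uhrf1, which binds CG sites methylated on 1 strand. The Tet enzymes oxidise methylcytosine, and Tdg cuts out the oxidised bases so that base excision repair can put back plain cytosine. Promoters of pluripotency genes such as Nanog are methylated in fibroblasts and lose that methylation in fully reprogrammed cells. CG-rich promoters, known as CpG islands, are usually unmethylated.

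RefSeq annotates 16 transcription starts for the 9 genes, and each is represented by a window of 300 bases, 250 before the start and 50 after it, on build GRCm38.p6. The 16 windows held a median of 20 CG dinucleotides, against 13 over 21263 windows of protein-coding genes. The 7 windows below were picked to show the range: starts with no peak in any list (Dnmt1 start 1, Dnmt3l start 1), starts under a peak in every list (Dnmt1 start 3, Tet2), and starts whose cover differed between lists (Dnmt3a starts 2 and 3, Dnmt3b). They run 5′ to 3′ on the strand of the gene, with every CG in capitals. Starts are numbered along the gene.
Dnmt1 start 1, chr9:20959839-20960138, minus strand: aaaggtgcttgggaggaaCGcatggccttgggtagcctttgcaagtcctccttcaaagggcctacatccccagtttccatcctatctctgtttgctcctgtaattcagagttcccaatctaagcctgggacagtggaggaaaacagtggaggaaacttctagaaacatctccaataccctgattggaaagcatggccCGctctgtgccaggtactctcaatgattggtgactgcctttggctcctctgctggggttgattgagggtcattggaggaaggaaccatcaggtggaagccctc
Dnmt1 start 3, chr9:20952574-20952873, minus strand: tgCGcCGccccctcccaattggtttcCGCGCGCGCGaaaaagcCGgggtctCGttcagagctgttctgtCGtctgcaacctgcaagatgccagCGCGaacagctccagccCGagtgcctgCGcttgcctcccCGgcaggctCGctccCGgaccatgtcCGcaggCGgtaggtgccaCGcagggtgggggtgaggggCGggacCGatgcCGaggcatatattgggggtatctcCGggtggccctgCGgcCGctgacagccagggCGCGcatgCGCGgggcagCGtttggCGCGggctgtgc
Dnmt3a start 2, chr12:3806910-3807209, plus strand: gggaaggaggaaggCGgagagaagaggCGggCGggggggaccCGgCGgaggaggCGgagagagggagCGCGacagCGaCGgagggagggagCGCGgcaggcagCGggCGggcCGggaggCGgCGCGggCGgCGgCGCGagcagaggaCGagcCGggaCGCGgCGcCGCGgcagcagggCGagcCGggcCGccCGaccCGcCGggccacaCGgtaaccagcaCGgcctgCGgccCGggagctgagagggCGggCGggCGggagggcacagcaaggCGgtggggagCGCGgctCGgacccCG
Dnmt3a start 3, chr12:3891494-3891793, plus strand: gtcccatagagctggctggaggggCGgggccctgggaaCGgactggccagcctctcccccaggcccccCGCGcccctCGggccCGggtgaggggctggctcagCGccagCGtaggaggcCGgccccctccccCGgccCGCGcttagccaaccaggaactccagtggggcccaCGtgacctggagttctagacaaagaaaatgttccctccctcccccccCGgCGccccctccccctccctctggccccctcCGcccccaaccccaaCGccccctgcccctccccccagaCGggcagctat
Dnmt3b start 1, chr2:153649199-153649498, plus strand: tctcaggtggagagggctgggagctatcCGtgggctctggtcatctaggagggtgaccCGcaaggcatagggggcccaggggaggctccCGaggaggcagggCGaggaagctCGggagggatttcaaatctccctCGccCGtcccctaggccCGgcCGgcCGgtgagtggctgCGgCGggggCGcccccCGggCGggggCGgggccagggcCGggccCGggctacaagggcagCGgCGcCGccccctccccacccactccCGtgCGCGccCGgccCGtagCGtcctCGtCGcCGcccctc
Dnmt3l start 1, chr10:78042037-78042336, plus strand: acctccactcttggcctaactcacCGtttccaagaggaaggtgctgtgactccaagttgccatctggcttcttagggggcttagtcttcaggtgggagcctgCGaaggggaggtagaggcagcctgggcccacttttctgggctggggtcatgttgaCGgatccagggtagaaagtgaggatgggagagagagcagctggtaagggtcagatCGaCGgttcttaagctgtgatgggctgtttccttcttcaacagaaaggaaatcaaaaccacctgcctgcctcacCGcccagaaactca
Tet2 start 1, chr3:133544341-133544640, minus strand: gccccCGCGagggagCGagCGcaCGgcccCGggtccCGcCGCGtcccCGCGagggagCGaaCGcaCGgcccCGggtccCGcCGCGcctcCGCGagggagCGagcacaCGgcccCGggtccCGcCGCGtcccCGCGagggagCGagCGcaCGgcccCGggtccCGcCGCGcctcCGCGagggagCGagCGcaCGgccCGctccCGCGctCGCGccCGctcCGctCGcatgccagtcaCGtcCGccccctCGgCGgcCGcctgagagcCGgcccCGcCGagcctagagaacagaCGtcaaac

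The contrast between these windows is visible by eye. Dnmt1 start 1 has 2 CG and Dnmt3l start 1 has 6, while Dnmt3a start 2 has 47 and Tet2 start 1 has 57, more than in 98.2% and 99.8% of coding windows. Dnmt1 start 3 has 33 CG, Dnmt3b has 30 and the inner Dnmt3a start has 18. The Tet2 window is built of a repeated unit: shifted by 42 bases against itself, 175 of 258 bases matched, 67.8%, against at most 46.8% in the best shift from 20 to 150 bases of the other 15 windows. Reads are harder to place in such a repeat, but all 300 bases of it lay under a peak in every list.

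The motif of Nrf1, GCATGCGC, was searched on both strands and lay in 2 of the 16 windows, Dnmt1 starts 2 and 3, against 3.52% of coding windows. These 2 windows do not share bases. The E2F motif GGCGGGAA lay in 1 window, Uhrf1 start 1, against 2.85% of coding windows. The E-box CACGTG lay in 3 windows, those of Dnmt3a start 3, Dnmt3l start 2 and Tdg, against 7.84%. The GC box GGGCGG lay in 12 of 16, against 46.2%. Neither the octamer ATGCAAAT, in 1.66% of coding windows, nor the AP-1 motif TGANTCA, in 6.99%, was in any of the 16. The E2F motif can share bases with the GC box, and in Uhrf1 start 1 they stand apart. A match describes the letters of a window and not a bound site.

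The 9 loci together had 31 peaks in D209N day 7, 33 in Flag day 7, 25 in D209N day 3 and 34 in Flag day 3. The peaks covered 21379 bp in D209N day 7, 21971 bp in Flag day 7, 11968 bp in D209N day 3 and 16011 bp in Flag day 3. D209N day 3 was thus the lowest list in both measures, and Flag day 3 had the most peaks but not the most covered sequence. Their median width was 562 bp in D209N day 7, 517 bp in Flag day 7, 465 bp in D209N day 3 and 404.5 bp in Flag day 3. The medians of the whole lists were 489, 464, 464 and 472 bp in the same order. Every gene had a peak in every list, except Dnmt3l in D209N day 3. The whole lists held 40452, 42439, 29189 and 36375 peaks in the same order, so D209N day 3 was also the shortest list of the genome.

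The genes were also summed by role. The de novo genes Dnmt3a, Dnmt3b and Dnmt3l had 11 peaks in D209N day 7, 12 in Flag day 7, 6 in D209N day 3 and 7 in Flag day 3. The 3 Tet genes had 13, 16, 12 and 21 in the same order. The de novo loci therefore had more peaks at day 7 in both arms, as did the whole lists. Their counts include peaks at the start of Aire, inside Dnmt3l, and in a pseudogene of Dnmt3b, both described below. The Tet loci had their highest number in Flag day 3. By gene in the same order, Tet2 had 5, 6, 6 and 10, Tet1 had 4, 4, 4 and 5, and Tet3 had 4, 6, 2 and 6. Dnmt1 and Uhrf1 together had 5, 3, 5 and 4, and Tdg had 2 in every list.

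**Figure D1:**
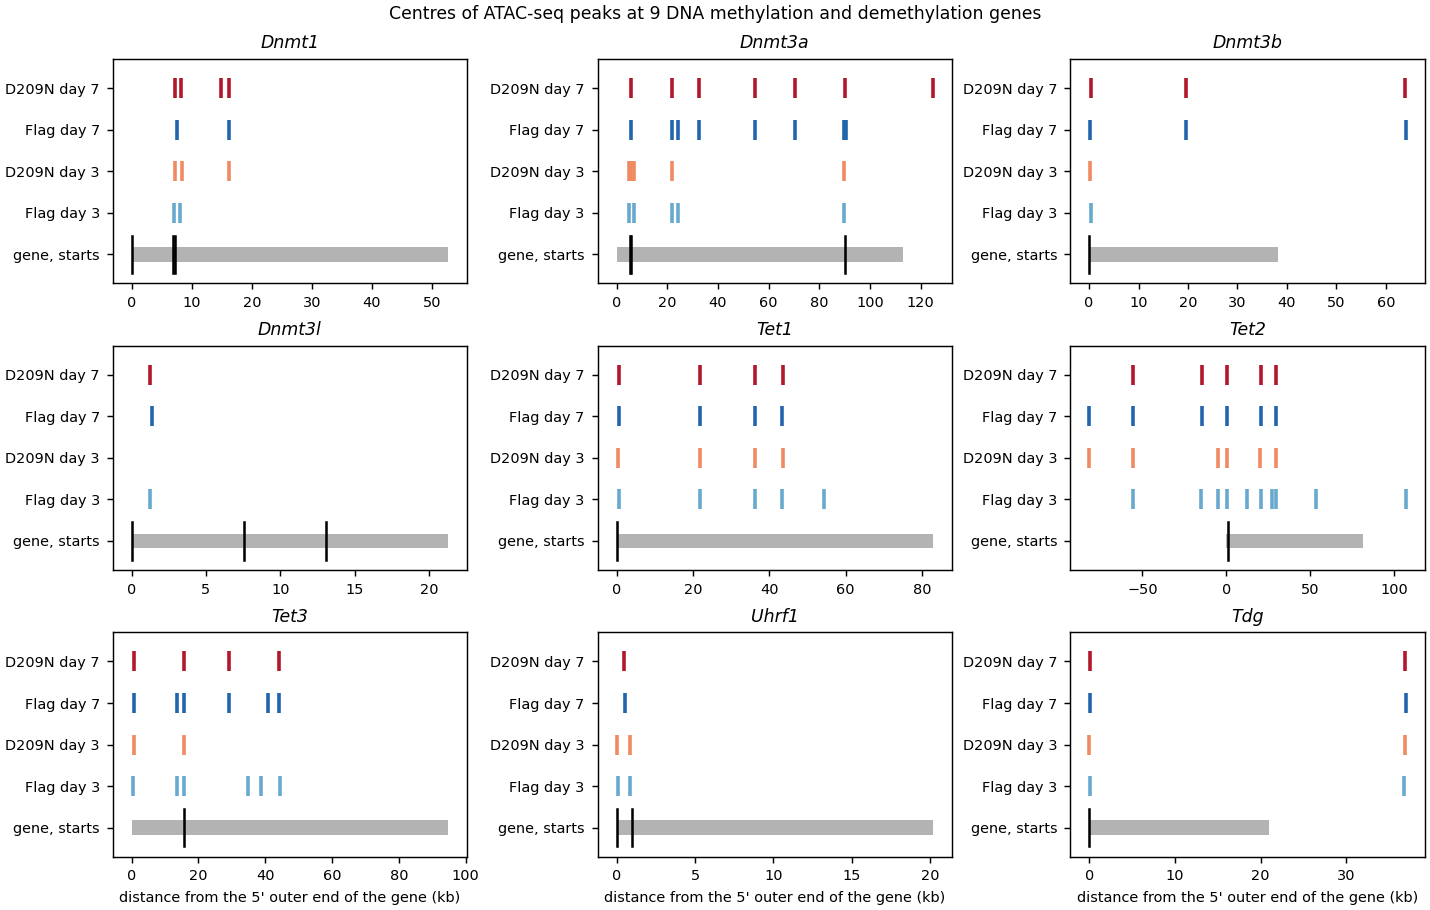
Centres of the assigned peaks along each gene, in kb from the outer 5′ end of the gene; each row is 1 list, the grey bar is the annotated gene and the black lines are annotated starts. Dnmt3a and Dnmt3b show more marks in both day 7 rows, and Tet2 shows 6 marks in D209N day 3 against 10 in Flag day 3.

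**Figure D2:**
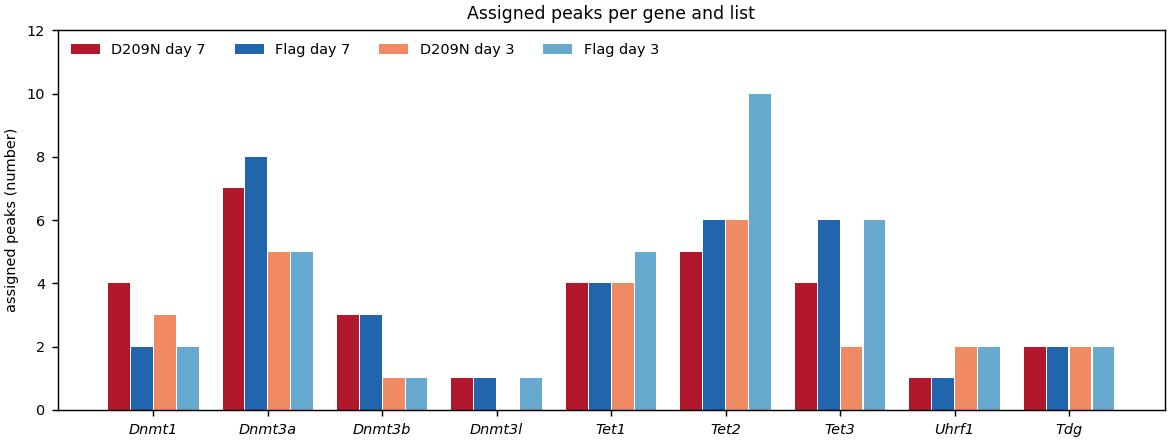
Number of assigned peaks (vertical axis) at each of the 9 genes in the 4 lists; each bar is 1 list without replicates. Tet2 ranges between 5 in D209N day 7 and 10 in Flag day 3, and Tdg has 2 in all lists.

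Dnmt1, the maintenance methyltransferase, lies at chr9:20907206-20959888 on the minus strand. Its outermost start, start 1 above, was free of peaks in all 4 lists. Starts 2 and 3 lie about 7 kb inside and share the region chr9:20951410-20953172, of which 1364 bp were covered in D209N day 7, 1723 bp in Flag day 7, 880 bp in D209N day 3 and 998 bp in Flag day 3. Both day 7 lists covered more of it than both day 3 lists, and D209N covered less than Flag on each day. All 300 bases of start 3 lay under a peak in every list. Start 2, with 12 CG, had 243 bases covered in D209N day 7, 238 in Flag day 7, 89 in D209N day 3 and 172 in Flag day 3. Dnmt1 is known to use different first exons in oocytes and in somatic cells, and the table of starts does not say which transcript each start belongs to.

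A second Dnmt1 region, chr9:20943501-20943953, is inside the gene, 8.90 kb past the nearest start. It had 238 bp in D209N day 7, 453 bp in Flag day 7, 230 bp in D209N day 3 and no peak in Flag day 3. The remaining one, chr9:20944878-20945252, was a peak of 375 bp in D209N day 7 and was in no other list. The presence of a peak differed between arms at both of these regions, at day 3 in the one and at day 7 in the other.

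Uhrf1, the ring finger protein that brings Dnmt1 to half-methylated CG sites, lies at chr17:56303337-56323486 on the plus strand. It had 1 region, chr17:56302991-56304606, over both of its annotated starts, with 1570 bp in D209N day 7, 1345 bp in Flag day 7, 1264 bp in D209N day 3 and 919 bp in Flag day 3. Here D209N covered more than Flag on both days, opposite to Dnmt1. At day 3 the region was split into 2 peaks in each arm, with 249 bp between them in D209N and 315 bp in Flag. At day 7 each arm listed 1 peak across both starts. Start 2, with 33 CG, was covered over all 300 bases in every list, and the less CG-rich start 1, with 12, over 300 bases in D209N day 7, 210 in Flag day 7, 300 in D209N day 3 and 167 in Flag day 3.

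Dnmt3a, a de novo methyltransferase, lies at chr12:3801559-3914443 on the plus strand and had 8 regions. Its starts 1 and 2 lie 180 bases apart in the region chr12:3806161-3808849, of which 1918 bp were covered in D209N day 7, 2229 bp in Flag day 7, 644 bp in D209N day 3 and 1079 bp in Flag day 3. At day 7 each arm listed 1 broad peak over both starts. At day 3 each arm listed peaks on the flanks and left the middle almost free: in D209N 583 and 1108 bp lay unlisted on the sides of an interval of 11 bp, and in Flag 1390 bp lay unlisted between 2 peaks. Start 2, printed above, sits in that middle and had 300 of 300 bases covered in D209N day 7, 300 in Flag day 7, 0 in D209N day 3 and 1 in Flag day 3. Start 1 had 300, 300, 49 and 181 bases in the same order. Both windows were thus fully covered at day 7 in both arms, and at day 3 start 2 was uncovered or nearly so while start 1 kept part of its cover, more of it in Flag.

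The inner Dnmt3a start, start 3, is far inside the gene. A shorter Dnmt3a isoform, Dnmt3a2, is known to start from an internal promoter and to be the main form in embryonic stem cells, but the table does not name the transcript of this start. Its region, chr12:3891164-3892256, had 1024 bp in D209N day 7, 782 bp in Flag day 7, 102 bp in D209N day 3 and 304 bp in Flag day 3. The day 7 cover was 10.0 times the day 3 cover in D209N and 2.57 times in Flag. The start window itself had 300 of 300 bases covered in D209N day 7, 300 in Flag day 7, 0 in D209N day 3 and 89 in Flag day 3. The lncRNA gene Gm31623 overlaps the region, so the peaks cannot be given to Dnmt3a alone.

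Inside Dnmt3a, 3 regions off the starts were listed at day 7 in both arms and at day 3 in neither. The widest of them, chr12:3833653-3834418, had 689 bp in D209N day 7 and 641 bp in Flag day 7. The region chr12:3855871-3856250 had 252 bp in D209N day 7 and 380 bp in Flag day 7. The last of them, chr12:3871721-3872039, had 319 bp in D209N day 7 and 275 bp in Flag day 7. The region chr12:3822848-3823866 was in all 4 lists, with 877 bp in D209N day 7, 879 bp in Flag day 7, 838 bp in D209N day 3 and 1012 bp in Flag day 3. A small region at chr12:3825716-3825975 was in both Flag lists, with 228 bp at day 7 and 201 bp at day 3, and in neither D209N list. A peak of 216 bp beyond the gene, chr12:3926283-3926498, was in D209N day 7 alone.

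Dnmt3b, the other de novo methyltransferase, lies at chr2:153649411-153687730 on the plus strand. Its start region, chr2:153649213-153650345, had 1073 bp in D209N day 7, 876 bp in Flag day 7, 702 bp in D209N day 3 and 707 bp in Flag day 3. The arms were within 5 bp of each other at day 3, and D209N was the wider at day 7. The window printed above had 226 of 300 bases covered in D209N day 7, 286 in Flag day 7, 158 in D209N day 3 and 76 in Flag day 3. The window order therefore does not follow the order of the whole region. The inner region chr2:153668882-153669134 had 233 bp in D209N day 7 and 253 bp in Flag day 7, and no peak at day 3. Another region with the same pattern, 415 bp in D209N day 7 and 234 bp in Flag day 7, lies 63.9 kb past the start in the pseudogene Dnmt3b-ps1, where reads may be shared with near-identical copies.

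Dnmt3l, the inactive partner, lies at chr10:78042287-78063622 on the plus strand. None of its 3 annotated starts had a base under a peak in any list, and their windows held 6, 4 and 3 CG. The region chr10:78043237-78043819 overlaps the gene and had 544 bp in D209N day 7, 338 bp in Flag day 7, none in D209N day 3 and 125 bp in Flag day 3. That region covers the start window of Aire, a transcriptional regulator known from the thymus that is read from the opposite strand. The peaks counted for Dnmt3l are therefore peaks at the start of Aire, and no listed peak stood at a start of Dnmt3l.

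Tet1, which oxidises methylcytosine and is abundant in embryonic stem cells, lies at chr10:62804570-62887469 on the minus strand. Its start region, chr10:62886091-62887508, had 1240 bp in D209N day 7, 1351 bp in Flag day 7, 938 bp in D209N day 3 and 1073 bp in Flag day 3. A further 3 regions inside the gene were in every list, so 4 of 5 Tet1 regions were shared by all. The region chr10:62865230-62865879 had 606 bp in D209N day 7, 650 bp in Flag day 7, 536 bp in D209N day 3 and 488 bp in Flag day 3. The lncRNA gene Gm51805 overlaps this region and the start region, so their peaks cannot be given to Tet1 alone. The region chr10:62851044-62851548 had 473, 443, 265 and 451 bp and chr10:62843696-62844305 had 562, 589, 368 and 468 bp in the same order, with D209N day 3 lowest in both. The fifth region was a peak of 258 bp in Flag day 3 alone. Tet1 was the most even of the Tet loci across the lists.

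Tet2, the Tet gene known for its mutations in blood cancers, lies at chr3:133463677-133545136 on the minus strand and had 11 regions, the most of the 9 genes. Its repeat-rich start lies in the region chr3:133544067-133545175, with 1080 bp in D209N day 7, 970 bp in Flag day 7, 840 bp in D209N day 3 and 971 bp in Flag day 3. The Flag value was nearly the same on both days, and the D209N values were the highest and the lowest of the 4. Of the 11 regions, 4 were in all lists, 4 in Flag day 3 alone and 1 in both day 3 lists but neither day 7 list. The 4 regions of Flag day 3 alone had 236, 242, 142 and 423 bp in the order of the gene, the last of them beyond its 3′ end. The region of both day 3 lists, chr3:133549624-133550042, lies 4.70 kb upstream of the gene and had 314 bp in D209N day 3 and 386 bp in Flag day 3.

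Upstream of Tet2 no other protein-coding gene end is close. The region chr3:133600568-133601151, 55.7 kb before the gene, was in all lists with 396 bp in D209N day 7, 296 bp in Flag day 7, 508 bp in D209N day 3 and 382 bp in Flag day 3. The region chr3:133559610-133560154, 14.8 kb before the gene, had 278 bp in D209N day 7, 365 bp in Flag day 7, none in D209N day 3 and 324 bp in Flag day 3. The farthest region taken, 81.7 kb before the gene, had 235 bp in Flag day 7 and 265 bp in D209N day 3 and no peak in the other lists. These distal sites show no common order of the lists. Beyond the 100 kb limit Tet2 had 2 more nearest peaks in D209N day 7, 2 in Flag day 7, 1 in D209N day 3 and 2 in Flag day 3, the closest at 210.0 kb, and none of the other 8 genes had any.

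Inside Tet2, the region chr3:133524479-133525165 had 591 bp in D209N day 7, 517 bp in Flag day 7, 672 bp in D209N day 3 and 587 bp in Flag day 3. The region chr3:133515342-133515820 had 222, 322, 360 and 479 bp in the same order. At both sites each arm covered fewer bp at day 7 than at day 3.

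Tet3, the Tet enzyme known for oxidation of the paternal genome after fertilisation, lies at chr6:83362373-83457208 on the minus strand and had 8 regions. The region at its outer 5′ end, chr6:83455919-83457264, had 1346 bp in D209N day 7, 1260 bp in Flag day 7, 357 bp in D209N day 3 and 607 bp in Flag day 3. The region of the annotated start, chr6:83441124-83442000, had 872, 869, 560 and 638 bp in the same order, and it also holds a start of the lncRNA B230319C09Rik. Both 5′ regions were thus widest in D209N day 7 and narrowest in D209N day 3. The region chr6:83427479-83428497, 13.7 kb past the annotated start, had 835 bp in D209N day 7 and 1019 bp in Flag day 7 and no peak at day 3.

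The other Tet3 regions were mostly those of Flag lists. The region chr6:83443544-83443907 was the same interval of 364 bp in both Flag lists and was in neither D209N list. It overlaps the lncRNA gene B230319C09Rik. Over the genome 32 intervals were identical between the Flag lists. A pair of regions, with 355 and 335 bp, was in Flag day 3 alone, and one of 233 bp in Flag day 7 alone. The region chr6:83412693-83413372 had 376 bp in D209N day 7, 501 bp in Flag day 7, none in D209N day 3 and 369 bp in Flag day 3. In D209N day 3 the locus kept only the 2 regions described first, against 6 regions in Flag day 3.

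Tdg, the glycosylase that excises oxidised methylcytosine, lies at chr10:82629814-82650799 on the plus strand. Its start region, chr10:82629373-82630368, had 886 bp in D209N day 7, 783 bp in Flag day 7, 860 bp in D209N day 3 and 764 bp in Flag day 3. The other region, chr10:82666398-82667031, lies inside the neighbouring gene Glt8d2, with 509, 568, 465 and 324 bp in the same order. All 300 bases of the Tdg start window were covered in every list. Tdg was the only one of the 9 genes whose regions and number of peaks were the same in all 4 lists.

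**Figure D3:**
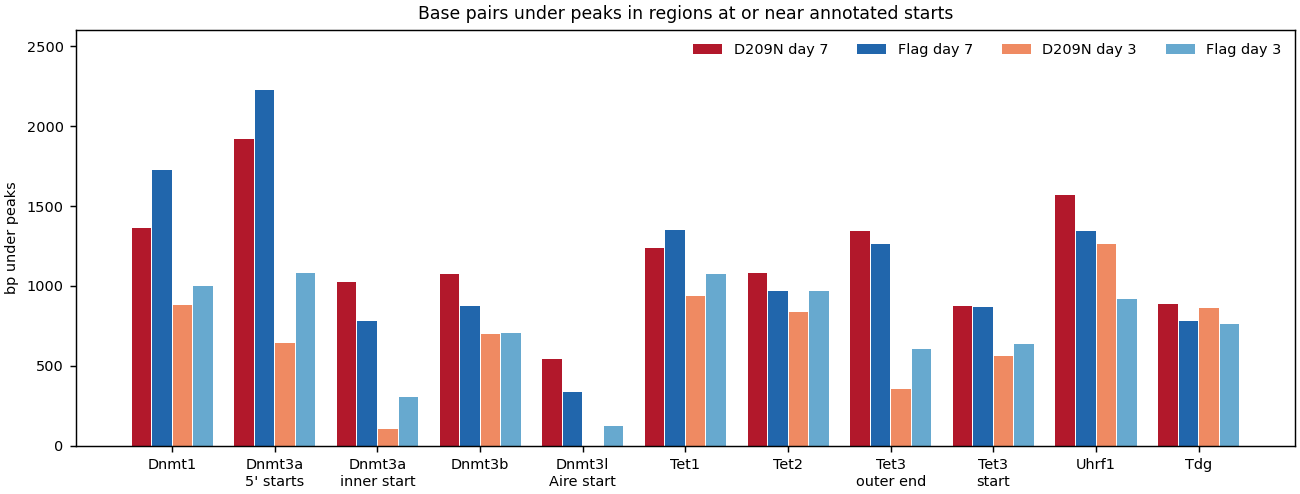
Base pairs under peaks (vertical axis) in the regions at annotated starts, at the outer end of Tet3 and at the start of Aire inside Dnmt3l; each bar is 1 list without replicates. The inner Dnmt3a start has 1024 bp in D209N day 7 and 102 bp in D209N day 3, and the Tdg start lies between 764 and 886 bp.

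Set against all regions of the genome, presence at day 7 differed little between the arms. Of 34 regions of the 9 loci listed at day 7, 2 were in D209N only, 5.88% with an exact binomial 95% interval of 0.72 to 19.7%, against 11.7% of all regions. Another 4 were in Flag only, 11.8% (3.3 to 27.5%), against 15.6%. These intervals cover counting error only and take the regions as independent, although several lie at the same gene. Both shares were below those of the genome, which lay inside the wide intervals of the loci. That is not a test of a difference.

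At day 3 the difference lay on the Flag side. Of 33 regions listed at day 3, 2 were in D209N only, 6.06% (0.743 to 20.2%), against 7.3% of all regions. Another 12 were in Flag only, 36.4% (20.4 to 54.9%), against 25.8%. The genome had the same lean to Flag. Its share lay inside the interval of the loci, which is not a test of a difference. The Tet genes hold 22 of the 33 regions listed at day 3 and 10 of those 12, with 5 at Tet2, 4 at Tet3 and 1 at Tet1, and the others were at Dnmt3a and Dnmt3l. All 12 had fewer bp in Flag day 3 than the median peak of that list, 472 bp, as did 89.9% of all regions of this kind. Of the 19 regions shared by both arms at day 3, 6 were below it, and 33.6% of all shared regions were. With only the peaks wider than their list's median kept, the loci had 18 peaks in D209N day 7, 18 in Flag day 7, 13 in D209N day 3 and 14 in Flag day 3. The day 3 difference between arms was then 1 peak. This filter removes all 12 regions of Flag only by their width, so the smaller difference does not show that the arms agree.

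Between the days, 11 of 32 regions were gained by day 7 in D209N, 34.4% (18.6 to 53.2%), against 35.9% of all regions. In Flag 9 of 40 were gained, 22.5% (10.8 to 38.5%), against 28.6%. In D209N 2 of 32 were lost, 6.25% (0.766 to 20.8%), against 10.3%, and in Flag 8 of 40 were lost, 20% (9.05 to 35.6%), against 16.3%. In each case the share of the genome lay inside the interval of the loci, which is not a test of a difference. By role, the de novo genes gained 7 of 11 regions in D209N and 5 of 11 in Flag and lost none. These gained regions include the one in the pseudogene Dnmt3b-ps1 in both arms and, in D209N, the one on the Aire start. The Tet genes gained 3 of 15 regions in D209N and 3 of 24 in Flag, and lost 2 of 15 in D209N and 8 of 24 in Flag. The difference between these roles was not tested.

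**Figure D4:**
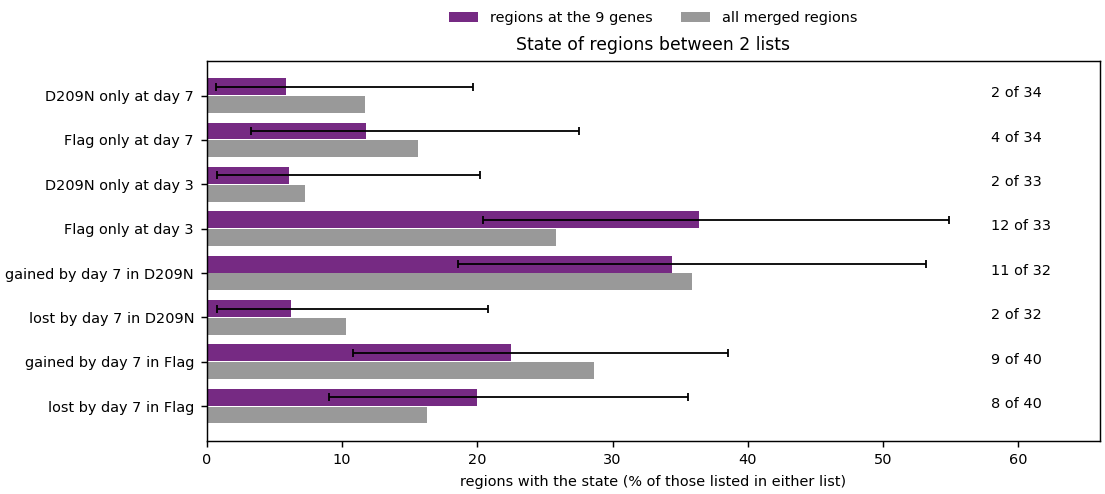
Share of regions (horizontal axis, %) with each state among those listed in either of 2 lists, for the 9 loci (purple, with exact binomial 95% intervals for counting error only) and for all merged regions (grey). The intervals take the regions as independent, although several lie at the same gene. The widest distance between the bars is that of Flag only at day 3, 36.4% against 25.8%.

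Across all 4 lists, 18 of the 42 regions were in every list, against 39.4% of all regions. The 6 regions gained in both arms, a state of 12.9% of all regions, were 3 at Dnmt3a, 2 at Dnmt3b and 1 at Tet3. The 1 region lost in both arms, a state of 4.69%, was the one 4.70 kb upstream of Tet2. The 3 regions missing from D209N day 3 alone, a state of 8.07%, were at Dnmt3l, Tet2 and Tet3, and the 7 of Flag day 3 alone, a state of 7.26%, were 4 at Tet2, 2 at Tet3 and 1 at Tet1. Of the 10 regions on a start window of any coding gene, 9 were in every list, against 82.6% of such regions over the genome, and the exception was the one on the Aire start. Off the start windows 9 of 32 were in every list, against 29.5%, so both shares were near those of the genome.

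Covered sequence was compared between lists for regions on and off the start windows of coding genes. Among regions on a start window and listed on both days, 9 of 9 had more bp in D209N day 7 than in D209N day 3, with a median ratio of 1.53, against 89.3% and 1.27 over the genome. In Flag 9 of 10 had more bp at day 7, with a median ratio of 1.41, against 78.8% and 1.14. The 10th region counted in Flag is the one on the Aire start inside Dnmt3l. Off the start windows 7 of 10 had more at day 7 in D209N, against 71.4% of all regions, and 7 of 13 in Flag, against 60.4%. Wider start regions at day 7 were thus the rule in the genome as well as at these genes.

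Between the arms at day 3, 2 of 9 start regions, those of Uhrf1 and Tdg, had more bp in D209N than in Flag, with a median ratio of 0.878, against 28.5% and 0.908 over the genome. Off the starts 4 of 10 had more in D209N, against 32.4%. At day 7, 7 of 10 start regions had more bp in D209N than in Flag, with a median ratio of 1.12, against 49.9% and 1.0 over the genome, and 7 of 18 off the starts, against 51.2%. Without the region on the Aire start, 6 of 9 start regions had more bp in D209N at day 7, with a median ratio of 1.11, and 1 of the 6, Tet3, by 872 against 869 bp. The day 3 shares of the loci were near those of the genome, and the day 7 difference rests on few regions and was not tested.

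The joining of separate peaks into 1, seen at Dnmt3a and Uhrf1 in both arms, was counted over the genome after these values had been seen, and so it has no more weight than a description. In D209N 2 of 9 start regions, Dnmt3a and Uhrf1, had fewer separate peaks at day 7 than at day 3, against 2.95% of all start regions, and 0 of 9 had more, against 0.545%. In Flag 3 of 10, Dnmt1, Dnmt3a and Uhrf1, had fewer at day 7, against 2.36%, and 1 of 10, the inner Dnmt3a start, had more, against 0.964%. At Dnmt1 D209N had a gap on both days, 255 bp at day 7 and 729 bp at day 3, whereas Flag had none at day 7 and one of 427 bp at day 3.

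The start windows were also read base by base. A peak touched 12 of the 16 windows in D209N day 7, against 56.6% of all coding windows, 12 in Flag day 7, against 57.2%, 10 in D209N day 3, against 48.1%, and 12 in Flag day 3, against 52.2%. The windows untouched in every list were those of Dnmt1 start 1 and of the 3 Dnmt3l starts, which hold between 2 and 6 CG. Those that D209N day 3 alone left untouched were Dnmt3a starts 2 and 3. Flag day 3 touched start 2 by 1 base of 300 only and start 3 by 89 bases. Of the 10 windows above the coding median of 13 CG, 10 were touched in D209N day 7, 10 in Flag day 7, 8 in D209N day 3 and 10 in Flag day 3. The shares of coding windows above that median were 92.5, 93.2, 80.6 and 86.4% in the same order.

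The 2 overlapping starts of Dnmt3a belong to the class of 40 or more CG, with 1081 coding windows. The mean cover of that class was 281 bases in D209N day 7, 284 in Flag day 7, 211 in D209N day 3 and 243 in Flag day 3. Lower cover at day 3, and lowest in D209N, was therefore common to CG-rich windows of the genome, and Dnmt3a start 2, with 0 and 1 bases, was below those means. A peak touched 79.7% of the windows of that class in D209N day 3 and 88.2% in Flag day 3, so windows without cover were not rare in it. The Tet2 window is in the same class and had full cover in every list.

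**Figure D5:**
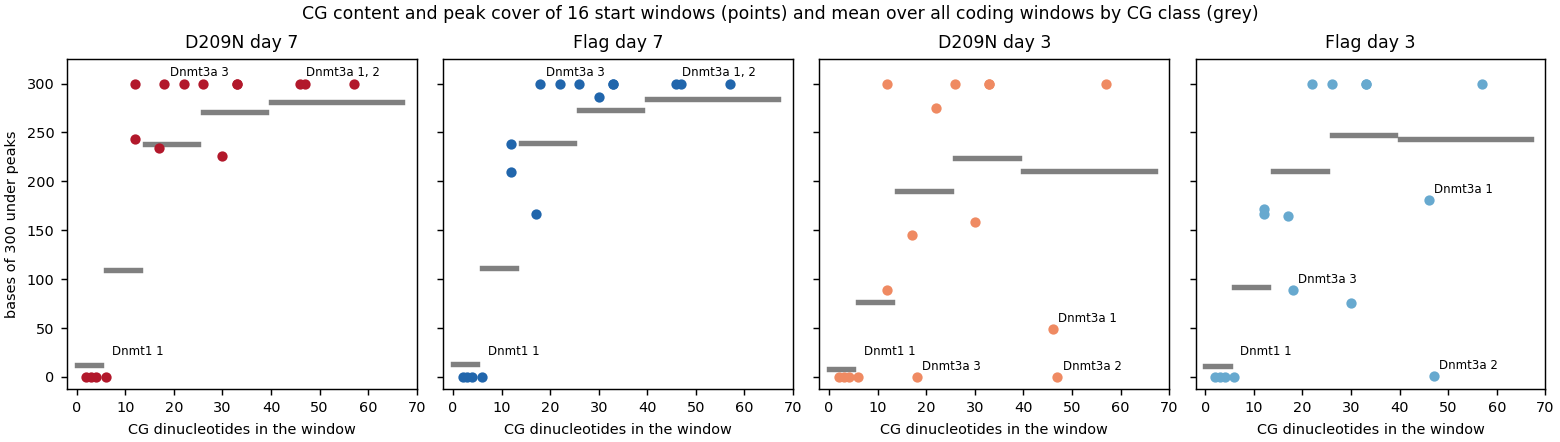
Bases of each 300-base start window under peaks (vertical axis) against its number of CG dinucleotides (horizontal axis), 1 panel per list; points are the 16 windows of the 9 genes and grey bars are the means of all coding windows in 5 CG classes. Dnmt3a start 2, with 47 CG, has 300 bases in both day 7 panels and 0 and 1 in the D209N and Flag panels of day 3.

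By number of peaks per gene, 1 of the 9 genes, Dnmt1, had more in D209N day 7 than in Flag day 7, against 11.5% of coding genes, and 3 had fewer, Dnmt3a, Tet2 and Tet3, against 18.4%. At day 3, again Dnmt1 alone had more in D209N than in Flag, against 5.9%, and 4 had fewer, Dnmt3l and all 3 Tet genes, against 25.1%. Between days in D209N 5 genes had more at day 7, Dnmt1, Dnmt3a, Dnmt3b, Dnmt3l and Tet3, against 34.6%, and 2 had fewer, Tet2 and Uhrf1, against 7.1%. In Flag, Dnmt3a and Dnmt3b had more at day 7, against 29.7%, and Tet1, Tet2 and Uhrf1 had fewer, against 11.8%. The lower numbers of Uhrf1 at day 7 are the joined peaks described above and not a lost region. Split peaks also entered the day 7 numbers of Dnmt3a and Dnmt1. The inner Dnmt3a start region was 1 peak in D209N and 2 in Flag. The start region of Dnmt1 was 2 peaks in D209N and 1 in Flag.

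A peak within 1 kb of either annotated end of the gene stood at 7 of the 9 genes in D209N day 7 and at 6 in each of Flag day 7, D209N day 3 and Flag day 3. Over all coding genes the shares were 60.4% in D209N day 7, 61.5% in Flag day 7, 51.7% in D209N day 3 and 55.9% in Flag day 3. Dnmt1 and Dnmt3a had none in any list, and their covered starts lie inside the annotated gene. Dnmt3l had one in D209N day 7 alone, the edge of the peak on the Aire start. It was the only one of the 9 in D209N only at day 7, a state of 0.973% of coding genes, and the only one gained in D209N, a state of 9.02%. By start windows in place of gene ends, 8 of the 9 genes had a window touched by a peak in each list, all but Dnmt3l. For this count a peak had to share bases with a start window, and the 1 kb distance did not apply.

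Other genes of the pathway were taken as 43 partners, methyl-CG readers, repair enzymes, Tet partners and methyl donor enzymes. A gene-end peak stood at 37 of 43 in D209N day 7, 37 in Flag day 7, 33 in D209N day 3 and 35 in Flag day 3, lowest in the list where the share of all coding genes was lowest too. At day 3, 1 of the 43, the CG-binding zinc finger protein Cxxc5, had it in D209N only, against 0.809% of coding genes. Another 3 had it in Flag only, against 5.03%: Kdm2b, a CG-island binding demethylase, Zbtb4, which binds methylated DNA, and Smug1, a uracil glycosylase. At day 7 none of the 43 differed between arms, against 0.973% in D209N only and 2.02% in Flag only. Between days 4 gained it in D209N, Kdm2b, Zbtb4, Smug1 and Ogt, the O-GlcNAc transferase that binds Tet proteins, against 9.02%, and none lost it, against 0.32%. In Flag 2 gained it, Ogt and Cxxc5, against 6.23%, and none lost it, against 0.704%.

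The 43 genes had 117 assigned peaks in D209N day 7, 127 in Flag day 7, 89 in D209N day 3 and 114 in Flag day 3. In D209N day 3, 18 of them had fewer peaks than in Flag day 3, against 25.1% of coding genes, and 2 had more, against 5.9%. In D209N, 19 had more at day 7 than at day 3, against 34.6%, and 7 had fewer, against 7.1%. In Flag 15 had more at day 7, against 29.7%, and 7 had fewer, against 11.8%. At day 7, 15 had fewer peaks in D209N than in Flag, against 18.4%, and 6 had more, against 11.5%. The pathway genes thus also had their lowest number in D209N day 3, and more of them had fewer peaks in D209N than had more on both days.

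Marker genes of the cell types that the cultures could hold were read in the same lists by their gene-end peaks. Fibroblast markers had one at 4 of 6 genes in D209N day 7, 4 in Flag day 7, 3 in D209N day 3 and 3 in Flag day 3. Epithelial markers of early reprogramming had one at 6 of 7, 5, 2 and 3 genes, and pluripotent markers at 3 of 7, 2, 1 and 3, in the same order. Macrophage markers had one at 1 of 4 genes and endothelial markers at 1 of 3 in every list, and muscle markers at 1 of 2 genes in both day 7 lists and at 0 in both day 3 lists. No list had a gene-end peak at the fibroblast gene Thy1, the epithelial gene Krt18 or the pluripotency genes Nanog, Esrrb, Dppa5a and Tdgf1. Nor did the macrophage genes Adgre1, Csf1r and Ptprc, the endothelial genes Pecam1 and Cdh5 or the muscle gene Myog have one. Of these genes only Tdgf1, Adgre1 and Myog had no assigned peak in any list. Nanog had 3 assigned peaks in D209N day 7, 2 in Flag day 7, 1 in D209N day 3 and 2 in Flag day 3. Cdh5 had 7, 7, 3 and 3 in the same order. Epithelial markers had a gene-end peak at more genes at day 7 in both arms. By the same measure epithelial and pluripotent markers were lowest in D209N day 3. The share of all coding genes with a gene-end peak was 60.4% and 61.5% in D209N and Flag at day 7. At day 3 it was 51.7% and 55.9% in the same order. This share thus also rose by day 7 in both arms and was lowest in D209N day 3. In Flag, however, pluripotent markers had one at 3 genes at day 3 and at 2 at day 7. At day 7 epithelial and pluripotent markers had more in D209N than in Flag, whereas the share of all coding genes was lower in D209N. These differences rest on Krt19 alone among the epithelial and Zfp42 alone among the pluripotent markers. The part of other cell types in these results was not tested.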

How the data were processed

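ATAC-seq libraries were made from a fixed number of cells, per the labels' protocols. For each group the authors deposited a single peak list, with the start and end of each interval and no score, signal, p-value or read count, although 2 libraries are labelled in each group. Per the submitters' processing notes, the tools were CASAVA and Bowtie2 2.3.2 and the builds mm10 and GRCm38.p5, with no role stated. Not given in the sources used here are the peak caller and its cutoff, any shift for the transposase, and how the libraries became 1 list. Peak names carry rep1 in all 4 lists, so a list may rest on 1 library. The arm and day in the peak names tie each list to a group.

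From the intervals (3 per list off chromosomes 1 to 19, X and Y were left out) peaks, widths, covered bp and merged regions were computed with Python 3.11.15, numpy 2.4.6, pandas 2.3.3 and scipy 1.17.1, and figures were drawn with matplotlib 3.10.9. Gene positions and start windows came from RefSeq tables of GRCm38.p6, which share the main chromosomes of the files' build. They give no exons, so a place inside a gene is not split into exon and intron. Merging, nearest ends and gene-end peaks were checked on simulated intervals. A region counts for a gene when it holds a peak of that gene. Gained and lost compare day 7 with day 3 of 1 arm.

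All 9 genes are described, and the pathway genes named are those whose gene-end peak differed between arms or days. The genes, the pathway list and the markers were chosen with earlier results of these data known. A paired fit, a test between groups and a depth correction could not be made from these lists. RNA-seq, R-loop and CLIP-seq samples were not analysed here.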

Additional observations from a re-analysis of the deposited data

Results flagged for a closer look

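At the 5 values flagged here, differences between the days had opposite signs in the arms, and none of these differences was tested. They are not all such values in the text. Peaks of the 3 Tet genes, for example, numbered 12 in D209N day 3 and 13 in D209N day 7. In Flag they numbered 21 at day 3 and 16 at day 7. Assigned peaks over the 9 loci, day 7 minus day 3, differed by 6 in D209N and by -1 in Flag. The opposite direction was absent among peaks wider than the median of their list, which differed by 5 in D209N and 4 in Flag. That filter removes by width all 8 regions lost by day 7 in Flag, so it does not decide whether the direction holds. Covered bp over the loci also had 1 direction, with differences of 9411 bp in D209N and 5960 bp in Flag. The region 81.7 kb upstream of Tet2 differed by -265 bp in D209N and by 235 bp in Flag, since it was listed in D209N at day 3 alone and in Flag at day 7 alone. Covered bp of the start region of Tet2 differed by 240 bp in D209N and by -1 bp in Flag, which is hardly a change in Flag. The Tet1 region chr10:62851044-62851548, inside the gene, differed by 208 bp in D209N and by -8 bp in Flag, again a very small change in Flag. The Dnmt3a region chr12:3822848-3823866, inside the gene, differed by 39 bp in D209N and by -133 bp in Flag. With 1 list per group there is no spread to read these values against.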

How the results depend on the processing

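Of 48 alternative values of the main counts, 44 stayed within 1.5 times the reported value. Keeping only peaks wider than the median of their list moved the other 4, to 18 peaks in D209N day 7, 18 in Flag day 7, 13 in D209N day 3 and 14 in Flag day 3. Peaks within 20 kb of a gene end numbered 29, 30, 23 and 32, peaks overlapping a gene 26, 28, 21 and 29, and nearest ends of any annotated gene gave 28, 30, 23 and 33, in the same order. Of the alternative peak numbers per gene, 114 stayed within 1.5 times the reported value and 30 did not. Tet2 in Flag day 3, for example, had 10 peaks as reported and 6 when only peaks overlapping the gene were kept. Joining peaks only at an overlap of 50% of the shorter one gave 44 regions, with 3 lost in D209N and 9 in Flag and the other states as reported. Extending peaks by 250 bp changed no state. Gene-end peaks stood at 6, 6, 5 and 6 genes with 500 bp and at 7, 7, 6 and 7 with 2 kb. No paired analysis was possible because each group has 1 list that does not keep its libraries apart, and no library could be left out for the same reason. Read depth is not in the lists, and its part in missing narrow peaks was not tested.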
